A study of Mus musculus with 11 samples.

Results

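Glutamate released at synapses is cleared by neighbouring glial cells, which take it up through transporters of the Slc1a family, turn it into glutamine with glutamine synthetase, and hand the glutamine back through transporters of the Slc38a family. Supporting cells (SCs) of the cochlea share many genes with glia, and the SCs that wrap the inner hair cells are known as the site of glutamate uptake beside the inner hair cell synapse. Fabp7, a brain-type fatty acid binding protein, is best known from radial glia and from the glia of peripheral nerves.

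The genes described are 6 of 24898 in the deposited tables: the glutamate transporters Slc1a3 and Slc1a2, glutamine synthetase Glul, the glutamine transporters Slc38a3 and Slc38a1, and Fabp7. They were chosen by symbol, and all 6 were present in each of the 4 tables. The data are droplet single cell libraries (10x Chromium) of cochlear epithelium from wild type CD1 mice, in which E14, E16, P1 and P7 have 2, 3, 4 and 2 libraries, and the study pooled the ducts of several animals for each. The labels give no treatment and no transgene, so the groups are 4 ages of 1 strain. Each library held 1247 to 5598 cells, with a median of 2478 to 5648 unique molecular identifiers (UMIs) per cell, and no pair of libraries shared more than 0.958% of the cell barcodes of the smaller one.

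Cells were placed in classes by marker genes, none of which is one of the 6. The classes used here are inner phalangeal cells (IPhCs, which wrap the inner hair cells), Hensen's cells (HeCs, lateral to the organ of Corti), lateral prosensory cells and inner pillar cells at E16 (together called lateral domain cells), inner pillar and Deiters' cells (DCs) at P1 and P7 (together lateral SCs), cells of Kölliker's organ (KO, the transient epithelium medial to the organ of Corti), hair cells (HCs), and the glial cells caught at P7. KO cells were further split into a Calb1-high, a middle and a Calb1-low range by their medial markers. This split cuts a score and gives no set of types, and at P1 the middle range held 2362 of the 7020 KO cells. Levels are counts of UMIs per 1000000 UMIs in a cell (CPM), averaged over the cells of a class and given per library or as mean ± SD over libraries. The number of libraries, n, is that of the age unless stated. Fold changes are differences of log2(CPM + 10), tested with limma, and the added 10 CPM shrinks the change of a gene with a low level.

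The gates held 133 IPhCs and 119 HeCs at E16, 356 IPhCs and 148 HeCs at P1, and 168 glial cells at P7. Of the IPhCs, 16 at E16 and 46 at P1 lay within 0.25 of a threshold of the gate, and so did 16 and 15 of the HeCs. IPhCs had a Matn4 level of 705 to 1870 CPM at E16 and 1450 to 2390 at P1, and HeCs a Pmch level of 607 to 878 and 984 to 2210 CPM. Matn4 and Pmch are gate genes, so this only describes the gate. The summed level of the 10 markers of non-myelinating glia was 197 to 382 CPM in E16 IPhCs, 184 to 296 in P1 IPhCs and 34.8 to 74.4 in P1 lateral SCs, against 8570 to 9530 in P7 non-myelinating glia. Of these markers, Cdh19 and Foxd3 were at 0 in every E16 and P1 library of IPhCs, while Ednrb was at 93.4 and 170 CPM. The epithelial adhesion gene Epcam stood at 861 CPM in IPhCs at E16 and 1680 at P1.

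The P7 gate of IPhCs goes against its label. It held 9 and 4 cells, which were spread over several clusters, and all of its Fabp7 came from 4 cells that belong to a cluster led by Otol1, Krtdap and Lgals3. These 4 cells had a mean of 3870 CPM, and the other 5 and 4 cells had no Fabp7 UMI. At P7 the group is therefore called the IPhC gate, only the library with 9 cells enters its fits, and the results on Fabp7 that rest on the Otol1-led cells are given with and without them.

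Fabp7 had the largest differences between classes of SCs among the members tested, so its promoter is shown. In GRCm38, Fabp7 lies on chromosome 10 (57784881 to 57788450, plus strand). Slc1a3 (8634124 to 8710764) and Slc38a1 (96571418 to 96642913) lie on the minus strand of chromosome 15, Slc38a3 on the minus strand of chromosome 9 (107650634 to 107669530), Slc1a2 on the plus strand of chromosome 2 (102658659 to 102790784) and Glul on the plus strand of chromosome 1 (153899944 to 153909723). RefSeq promoters (GRCm38.p6) were found for Fabp7, Slc1a3, Slc1a2 and Glul. The 208 bases before the annotated Fabp7 gene, chr10:57784673-57784880 on the plus strand, are printed with a match to the core motif of RBPJ, the DNA-binding partner of Notch, in capitals (TGGGAA, here read on the other strand as TTCCCA).
Fabp7: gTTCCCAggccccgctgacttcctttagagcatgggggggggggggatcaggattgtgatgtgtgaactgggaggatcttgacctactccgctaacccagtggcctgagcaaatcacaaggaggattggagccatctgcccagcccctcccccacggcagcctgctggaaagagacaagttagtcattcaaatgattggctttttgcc
The motif, on either strand, was present in the 250 bases before the start of 21.6% of 32851 promoters and in none of those of Slc1a3, Slc1a2 and Glul. The match is a description and says nothing of binding. The motif AACAAT, bound by SOX factors and present in 9.42% of promoters on either strand, was found in none of the 4.

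At E14, Fabp7 was scarcely present. It was listed at 0 and 0.43 CPM in the 2 libraries of KO cells, where 1901 cells held 2 UMIs, and at 13.35 and 16.6 CPM in medial prosensory cells, the precursors of the inner hair cell region. One library of lateral prosensory cells had 58.4 CPM and the other 1.26. In the whole age 2 cells reached 1000 CPM.

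At E16, Fabp7 stood high in IPhCs and HeCs and low in the lateral domain. The 3 libraries of IPhCs had 979, 332 and 1210 CPM and those of HeCs 885, 758 and 387 CPM, against 28.8, 60.3 and 2.14 CPM in lateral domain cells. In the inner pillar cells of that domain 3 of 100 cells, in a cluster of cycling cells, had a mean of 2310 CPM. Neither class overlapped the lateral domain. IPhCs exceeded it by 4.54 on the log2 scale (SE 0.525, limma adjusted p = 3.99e-08) and HeCs by 4.34 (SE 0.525, adjusted p = 7.26e-08), higher in 3 of 3 libraries each. Of the 4 members tested, Fabp7 alone passed in IPhCs, where 3.41% of 9111 genes passed, and Fabp7 and Glul passed in HeCs, where 5.41% did. Medial prosensory cells had an intermediate mean (126 ± 73.9 CPM), but 8.26% of their 242 cells held a UMI and 9 reached 1000 CPM. KO cells held 2.18, 6.18 and 1.28 CPM.

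At P1, Fabp7 ranged further. IPhCs of libraries 1 to 4 had 3290, 2140, 1459 and 388 CPM, HeCs 1323, 902, 912 and 197 CPM, and lateral SCs 42.0, 9.08, 6.03 and 5.67 CPM. Neither IPhCs nor HeCs overlapped lateral SCs, and library 4 was the lowest in all 3 classes. Fabp7 was higher than in lateral SCs by 6.0 in IPhCs (log2, SE 0.463, adjusted p = 4.75e-13) and by 4.96 in HeCs (SE 0.463, adjusted p = 4.08e-11), in 4 of 4 libraries. These 4 calls at E16 and P1 held in each alternative run with limma. HCs had 13.8, 0, 11.3 and 0.873 CPM, and their difference from lateral SCs was not past the threshold (-0.54, SE 0.463, adjusted p = 0.387).

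**Figure D1:**
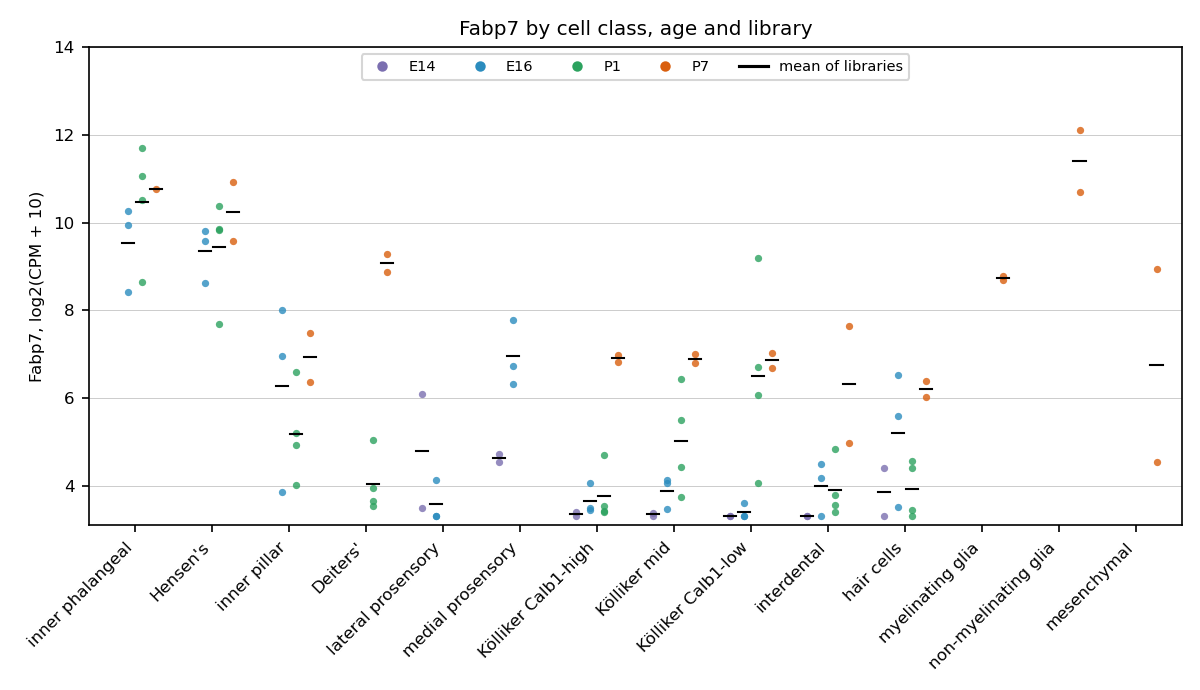
Fabp7 as log2(CPM + 10) on the vertical axis in each cell class on the horizontal axis, with 1 point per library of at least 5 cells, coloured by age, and a black bar at the mean of the plotted points. Inner phalangeal and Hensen's cells sit highest among epithelial classes at E16 and P1, and the P7 Deiters' gate, at 458 and 615 CPM, lies above that of P1, with 92.8 and 34.4 CPM in its cells outside the Otol1-led cluster.

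The share of cells with a Fabp7 UMI, taken after each cell was thinned to 1500 UMIs, was likewise high in IPhCs and HeCs and low in lateral cells and HCs. At E16 it was 36.1% of IPhCs (95% interval 27.9 to 44.9), 37.8% of HeCs (29.1 to 47.2), 1.28% of lateral domain cells and 3.56% of HCs (2.16 to 5.51). At P1 it was 57.6% of IPhCs (52.3 to 62.8), 42.6% of HeCs (34.5 to 51.0), 1.35% of lateral SCs and 0.874% of HCs (0.4 to 1.65). Without thinning it was 72.8% of P1 IPhCs and 2.23% of P1 HCs, with a median of 4732 to 7413 UMIs in the former and 5327 to 9614 in the latter. The share in lateral SCs was near that in HCs, which served as the background. Intervals are exact (Clopper-Pearson) and cover counting error only, and thinning left out 1 cell of the series.

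Between E16 and P1 neither class showed a change in Fabp7 past the threshold. The difference was 0.94 in IPhCs (SE 0.551, adjusted p = 0.398) and 0.10 in HeCs (SE 0.469, adjusted p = 0.978), and the libraries of the ages overlapped in both. The IPhC gate drew on clusters unequally at these ages, with 69 of 133 cells in the Matn4-led cluster at E16 (a mean of 1430 CPM) and 245 of 356 at P1 (2380 CPM). No member passed in either class, and 1.27% and 0.627% of all genes did. The change in IPhCs minus that in HeCs, tested on differences within libraries, was 0.84 (SE 0.63, adjusted p = 0.74).

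Fabp7 also appeared in a minority of the Calb1-low range of KO at P1, which is set by low medial markers and not by position. Of its 766 cells, 116 lay in a cluster led by Ppp1r14c, Clec14a and Fabp7, with a mean of 898 CPM, and 14 in the cluster led by Matn4, with 2180 CPM, while those in any other cluster had a mean of at most 101 CPM. Calb1-low cells of libraries 1 to 4 had 575, 56.8, 95.4 and 6.85 CPM and Calb1-high cells 15.9, 1.55, 0.695 and 0.665 CPM, higher in the former in 4 of 4 libraries although the ranges overlap between libraries. The difference was 2.75 (SE 0.463, adjusted p = 2.44e-04). Without library 1 it was 2.16 and not past the threshold (adjusted p = 0.0825), and likewise on the mean of the deposited log values (adjusted p = 1.0). Glul was the other member that passed, with 237 ± 61.4 CPM in Calb1-low and 120 ± 41.3 in Calb1-high cells (0.96, SE 0.257, adjusted p = 0.0447). It was lost without library 1, 3 or 4 (adjusted p of 0.0567 or more). In this comparison 1.44% of 8971 genes passed. Cells with at least 1000 CPM of Fabp7 were counted by cluster, and of the 407 at P1, 239 lay in the cluster led by Matn4, Fabp7 and Trh, 100 in that led by Ppp1r14c, and 44 in one led by Pmch. Of the 100, 80 came from library 1 and none from library 4.

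**Figure D2:**
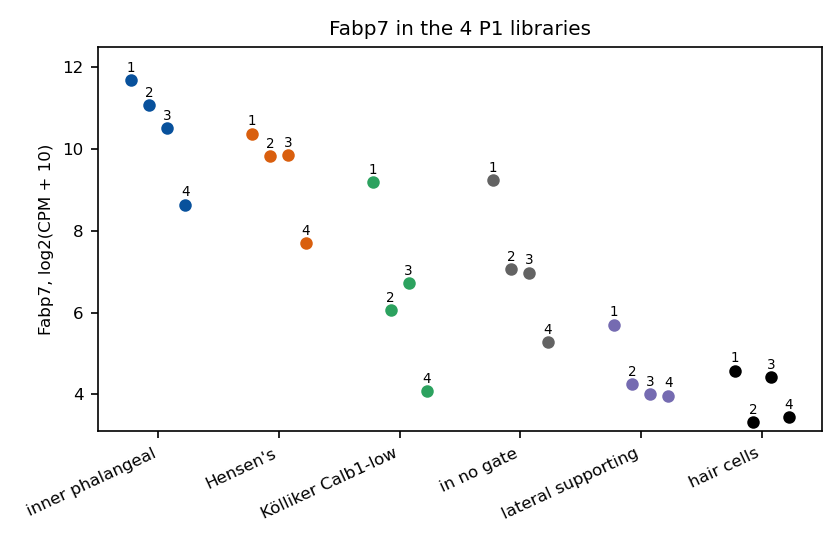
Fabp7 as log2(CPM + 10) in 5 P1 cell classes and in cells of no gate, with 1 point per library, marked by its number, from library 1 on the left to library 4 on the right of each group. Library 1 is highest in each group, 3290 CPM in inner phalangeal cells, and library 4 is lowest in all but hair cells.

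At P7, Fabp7 was present in glia, in epithelial cells and, unevenly between libraries, in mesenchymal cells, which had 481 and 13.4 CPM. Non-myelinating glia, which include the Schwann cells of small axons, had 1645 and 4413 CPM, and myelinating glia 404 and 433 CPM. The thinned share of cells with a UMI was 72.1% in the former (59.9 to 82.3) and 27% in the latter (18.6 to 36.8), beside 3.66% in P7 HCs (1.69 to 6.83). Epcam, an epithelial adhesion gene, was at most 21.1 CPM in either library of the non-myelinating glia. Among epithelial cells, KO cells had 106 and 113 CPM. DCs had 458 and 615 CPM, and 92.8 and 34.4 CPM without 10 cells of the Otol1-led cluster. HeCs, with 7 cells in each library, had 752 and 1934 CPM. Of these 14 cells, 7 lay in the cluster that has Pmch among its leading genes and had a mean of 1810 CPM, and the others lay in clusters of KO and mesenchymal cells, where 1 had 6100 CPM and the rest none. Of the 168 P7 cells with at least 1000 CPM, 41 were in the gate of non-myelinating and 10 in that of myelinating glia.

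Against all epithelial SC classes, P7 glia did not pass for any of the 4 members, while 15.6% of 8822 genes did. The epithelial side gave equal weight to the IPhC gate, HeCs, lateral SCs and each KO range, so classes of few cells counted as much as large ones. The difference of Fabp7 was 2.06 (SE 0.771, adjusted p = 0.0836) and that of Glul 0.79 (SE 0.293, adjusted p = 0.0818), with both libraries higher in each. Without the cells of the Otol1-led cluster, a setting chosen after seeing that they lay in the gates, the difference of Glul was 0.79 and passed (adjusted p = 0.026). That of Fabp7 was then 3.81, which is given as a description with no test, since Fabp7 is among the leading genes of that cluster and leaving its cells out of the epithelial side had to raise the value.

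The Otol1-led cluster held 116 and 70 cells of the P7 libraries and matched no marker list. Fabp7 in it was 1480 ± 457 CPM, and of the same 168 cells 48 lay in it and 50 in the cluster of non-myelinating glia. Those 48 cells had a mean of 2910 CPM of Epcam, against 42.5 CPM in the 50 cells. Slc1a3 was 182 ± 16.4 CPM in this cluster, the second highest of the 23 P7 clusters, and it was 36.3 ± 7.76 CPM in the cluster of non-myelinating glia.

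**Figure D3:**
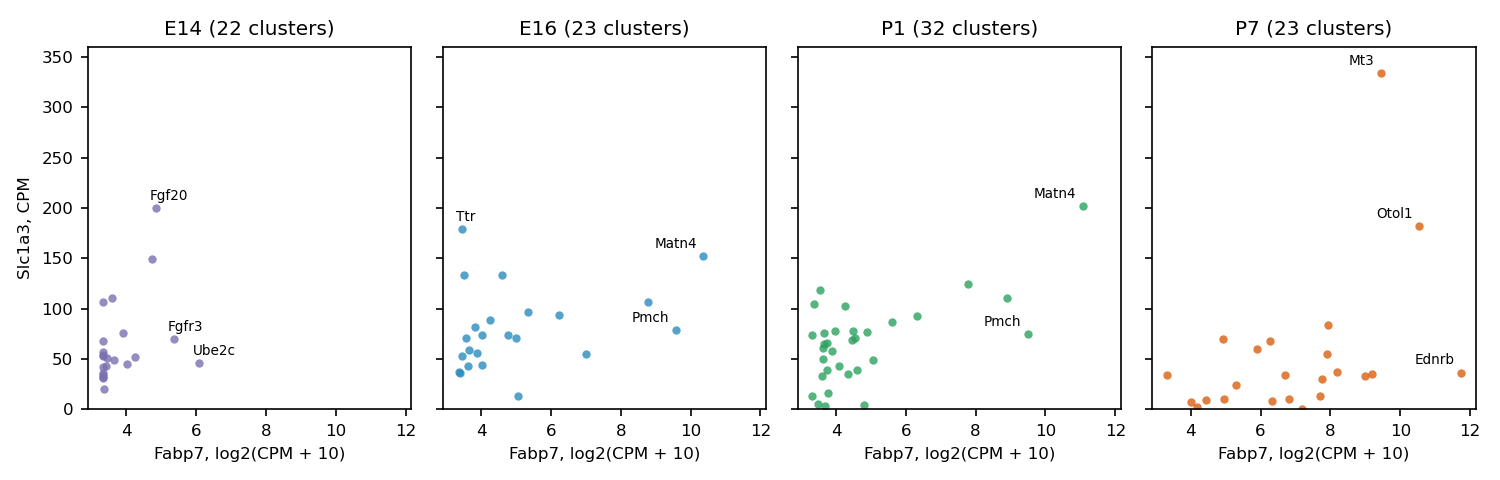
Mean level of each cell cluster at the 4 ages, Fabp7 as log2(CPM + 10) on the horizontal axis and Slc1a3 in CPM on the vertical axis, with a leading gene written beside the clusters that rank highest. Clusters led by Matn4 at E16 and P1 and by Otol1 at P7 are high in both, those led by Pmch or Ednrb are high in Fabp7 alone, and the point marked Mt3 rests on 1 library with 16 cells.

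In the lateral SCs Fabp7 was higher at P7, 348 and 448 CPM, than in any P1 library, where it reached 42.0 CPM at most. The difference was 4.18 (SE 0.428, adjusted p = 2.22e-05), and Fabp7 was the member that passed among 10.1% of 8557 genes. Most of it rested on 10 of the 103 cells of the DC gate, which lie in the Otol1-led cluster and had 4380 and 5450 CPM, whereas the other DCs had 92.8 and 34.4 CPM. Without the cluster the difference was 1.97, given with no test, since leaving out cells high in Fabp7 at P7 alone had to lower it. KO cells also had more Fabp7 at P7 than at P1 (2.07, SE 0.563, adjusted p = 0.0156), when 106 and 113 CPM compare with 94.6, 14.7, 9.25 and 2.90 CPM. The libraries of the ages did not overlap, but the call was lost without either P7 library (adjusted p = 0.0995 and 0.109). Without the Otol1-led cells the difference in KO cells was 1.98, likewise given with no test. Calb1-high cells had 0.665 to 15.9 CPM at P1 and 102.5 and 117 CPM at P7. Calb1-low cells had 6.85 to 575 CPM at P1 and 121 and 93.5 CPM at P7, so the ages overlapped in that range. Calb1-high cells were 3892 of 7020 KO cells at P1 and 309 of 1361 at P7, and the part of this mix was not tested. HCs, the background class, had 73.2 and 54.8 CPM at P7 and at most 13.8 CPM at P1. The P7 DCs outside the Otol1-led cluster thus lay around the level of P7 HCs and KO cells above it, and the part of this background in the rise of either class was not tested.

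**Figure D4:**
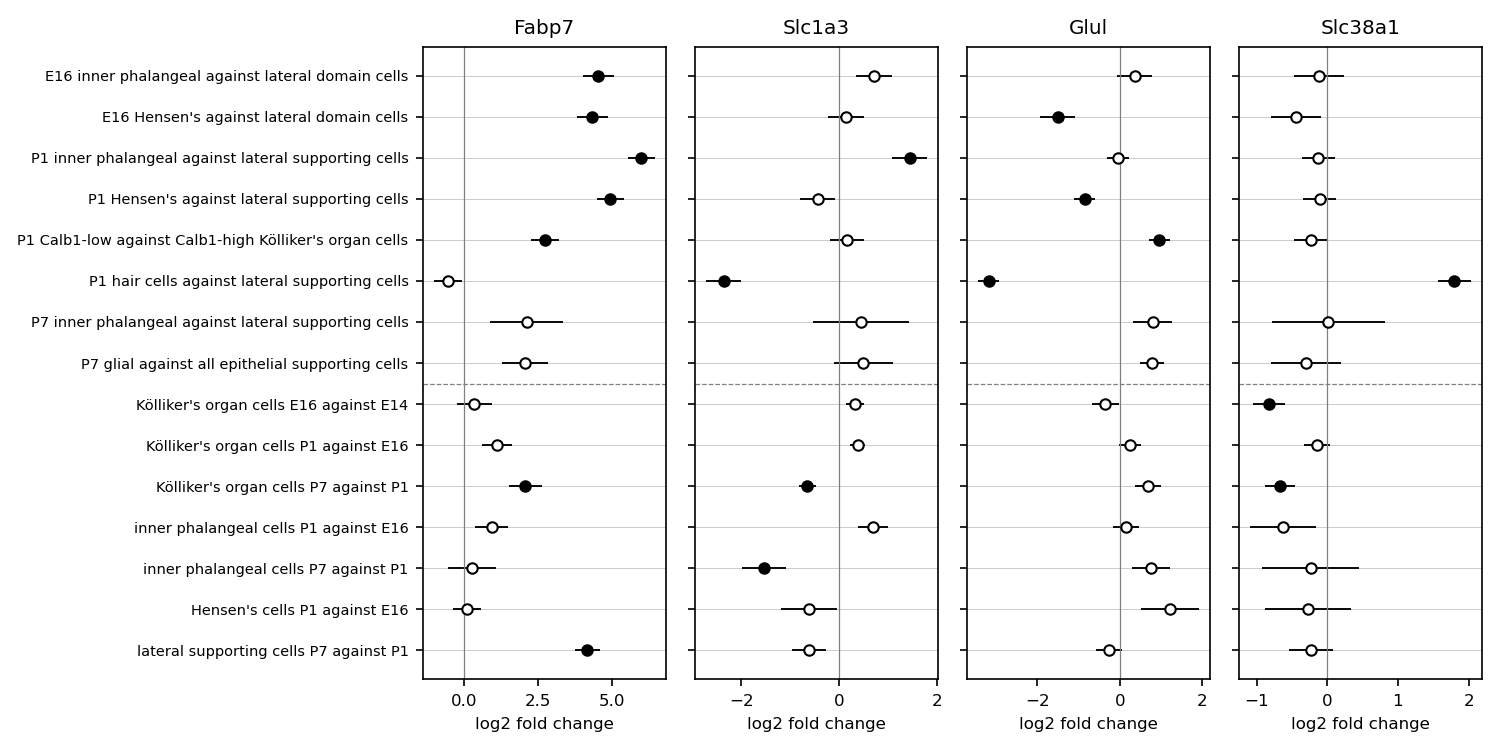
Log2 fold change with its standard error for Fabp7, Slc1a3, Glul and Slc38a1 in the 8 comparisons of cell classes (above the dashed line) and the 7 of ages (below it), each panel with its own horizontal scale. Filled points passed an adjusted p of 0.05, as Fabp7 did in P1 inner phalangeal cells at 6.0, and open points did not.

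Slc1a3, the glutamate transporter of astrocytes and of cochlear SCs, had its highest class means in medial prosensory cells at E14 and E16 and in IPhCs at P1, though at E16 the IPhCs and the Oc90-marked roof cells were within the spread of the medial cells. At E14 medial prosensory cells had 153 and 231 CPM and lateral prosensory cells 83.5 and 90.3 CPM, and at E16 medial prosensory cells had 134, 116 and 184 CPM. E16 IPhCs, with 104, 106 and 173 CPM, lay above lateral domain cells, with 75.6, 61.1 and 79.4 CPM, in 3 of 3 libraries, but the difference was not past the threshold (0.72, SE 0.373, adjusted p = 0.353).

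At P1, Slc1a3 in IPhCs was 201, 245, 196 and 190 CPM, close to each other and above every library of lateral SCs, which had 41.6, 84.2, 57.4 and 113 CPM. The difference was 1.45 (SE 0.355, adjusted p = 0.00482) and was lost without library 1 (adjusted p = 0.113). With Fabp7, 2 of the 4 members passed in this comparison, and 8.06% of 8971 genes did. HeCs, high in Fabp7, had 82.3, 15.6, 110 and 32.3 CPM of Slc1a3, which overlapped lateral SCs (-0.43, SE 0.355, adjusted p = 0.458). HCs had 3.51 to 7.33 CPM, lower than lateral SCs in 4 of 4 libraries (-2.36, SE 0.355, adjusted p = 6.17e-07).

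In KO cells the mean of Slc1a3 was 41.0 ± 1.96 CPM (E14), 54.2 ± 5.86 (E16), 73.7 ± 9.04 (P1) and 43.2 ± 0.283 (P7). The rise to P1 was not past the threshold at either step (adjusted p = 0.289 and 0.125). The libraries of E16 and P1 did not overlap, in KO cells or in IPhCs (0.69, SE 0.307, adjusted p = 0.273). The unadjusted two-sided exact permutation p was 0.0286 in both, the smallest that 4 against 3 libraries allow. The lack of overlap fixes this value, so it adds no support. The IPhC gate drew on clusters unequally at these ages, as given for Fabp7, and the part of this in Slc1a3 was not tested. The fall in KO cells from P1 to P7 passed (-0.65, SE 0.179, adjusted p = 0.0169), although it was lost without either P7 library (adjusted p = 0.131 and 0.118). The Calb1-high range had 62.1 to 101 CPM at P1 and 80.5 and 52.6 at P7, and the Calb1-low range 68.9 to 99.9 CPM at P1 and 17.5 and 17.7 at P7, and the difference between the ranges in this change was not tested. The mix of KO cells also differed, with 3892 of 7020 Calb1-high at P1 and 309 of 1361 at P7. The IPhC gate at P7 had 64.5 CPM in its library of 9 cells, all of it from the 4 Otol1-led cells, which had 145 CPM, while the other 5 had no UMI of Slc1a3. Its comparison with P1 IPhCs, in which 7.16% of 8737 genes passed, is part of the plot of fold changes, but with 1 library of a gate that goes against its label it gives no change of IPhCs. Myelinating glia had 67.7 and 108 CPM and non-myelinating glia 41.0 and 34.0.

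Slc1a2, the main forebrain glutamate transporter, was near the limit of detection. It did not reach a mean of 10 CPM in any fit and was not tested. P7 mesenchymal cells held 8 UMIs in 168 cells (6.94 and 13.6 CPM), P1 IPhCs 6 UMIs in 356 cells and P1 KO cells 16 UMIs in 7020 cells. In P7 glia it had no UMI in 168 cells, which allows a level of up to 4.9 CPM, that of 3 UMIs over the class.

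Glul, which makes glutamine from glutamate and ammonia, was present in every SC class. At P1 it was 297, 161, 171 and 243 CPM in IPhCs and 261, 163, 162 and 324 CPM in lateral SCs, and the classes did not differ past the threshold (-0.04, SE 0.257, adjusted p = 0.979). HCs had 9.51 to 20.6 CPM, below lateral SCs in 4 of 4 libraries (-3.18, SE 0.257, adjusted p = 1.42e-13). This was the largest difference of Glul in the 15 comparisons. Of the 4 members, 3 passed between HCs and lateral SCs, where 37.5% of all genes did.

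HeCs had less Glul than the reference at both ages. The 3 E16 libraries of HeCs had 0, 81.7 and 166 CPM and lateral domain cells 99.5, 142 and 212 CPM, a difference of -1.51 (SE 0.435, adjusted p = 0.0287) that was lost without library 1, which is at 0 with 24 cells (-0.54, adjusted p = 0.316), and without library 2 (adjusted p = 0.06). At P1 HeCs had 191, 30.8, 146 and 193 CPM and were lower in 4 of 4 libraries (-0.85, SE 0.257, adjusted p = 0.0159), with 12 cells in library 2. Without library 2 the difference was -0.43 (adjusted p = 0.2), and without library 4 -0.89 (adjusted p = 0.0542). Of the 4 members, 2 passed in P1 HeCs, against 18.6% of all genes.

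At P7 myelinating glia had 612 and 570 CPM of Glul, the gate of Claudius and outer sulcus cells, with 8 and 6 cells, 526 and 259 CPM, HeCs 386 and 368 CPM, non-myelinating glia 269 and 261 CPM and KO cells 221 and 240 CPM. HCs had 60.7 and 51.5 CPM. Between P1 and P7 Glul moved differently in lateral SCs and in KO cells. Lateral SCs exceeded KO cells at P1 by a mean of 0.60 on the log2 scale and differed from them at P7 by -0.33, a change of -0.94 (limma on within-library differences, SE 0.203, adjusted p = 0.00828). It was -0.92 without the Otol1-led cells (adjusted p = 0.00736). Among KO cells the class mean of Glul was 120 CPM at P1 and 238 at P7 in the Calb1-high range. It was 168 and 225 CPM in the middle range, and 237 and 236 CPM in the Calb1-low range. Calb1-high cells were 3892 of 7020 KO cells at P1 and 309 of 1361 at P7, and the part of this mix was not tested. The change of Fabp7 was 2.11 (SE 0.306, adjusted p = 0.0011). It was -0.01 without the Otol1-led cells, given with no test, since leaving them out had to lower the P7 value of lateral SCs. In the test on all cells 24.8% of 8571 genes passed.

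**Figure D5:**
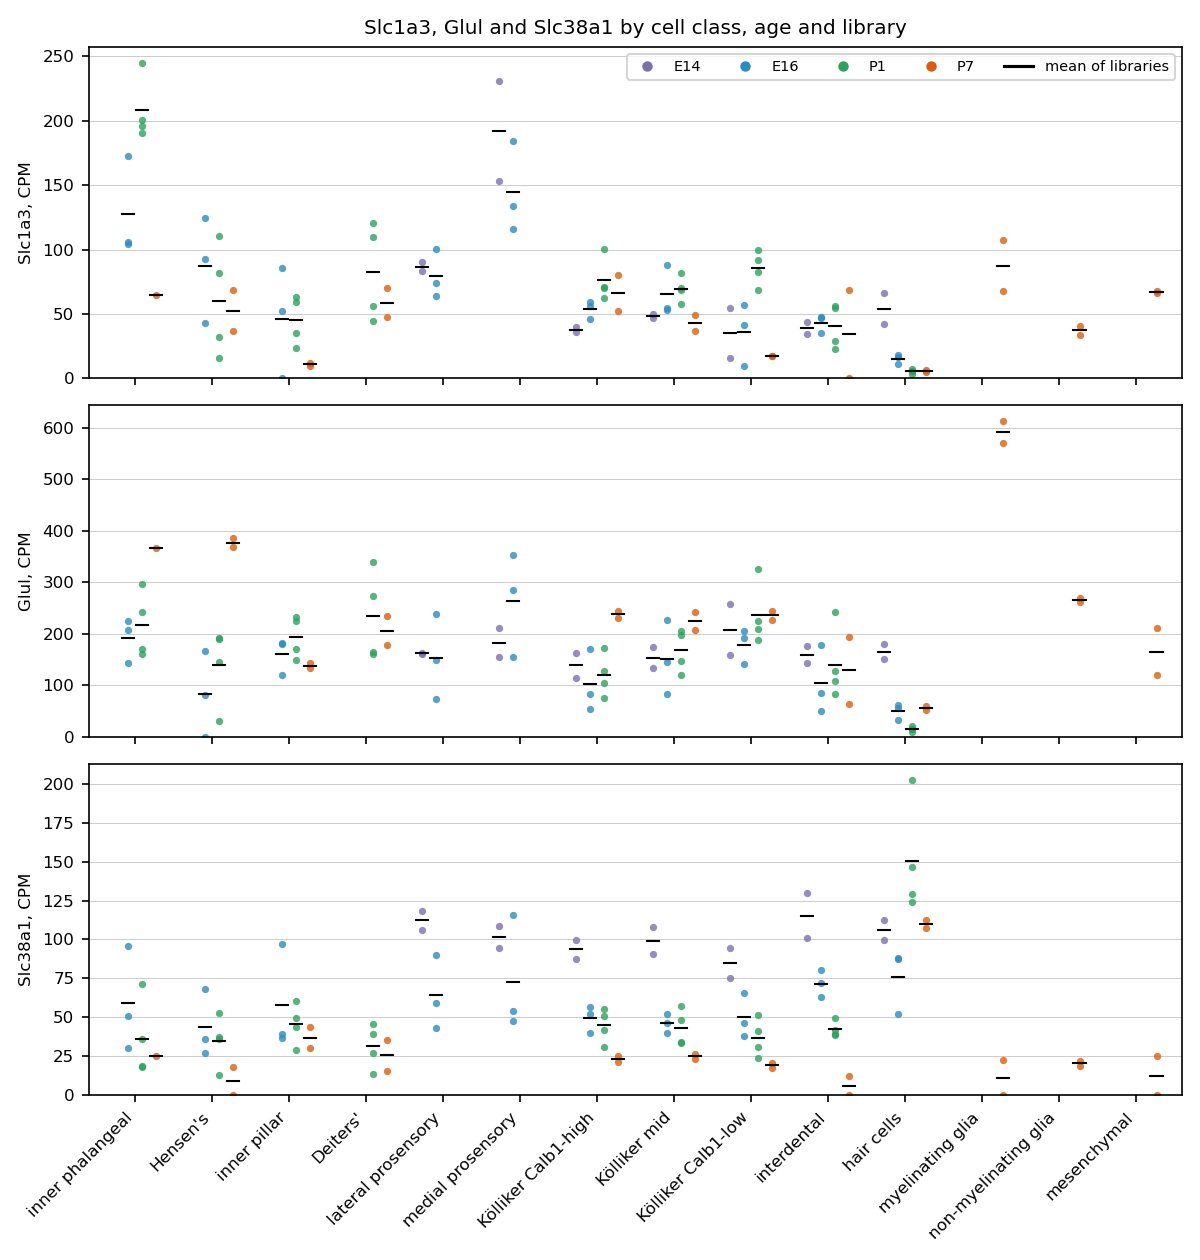
Slc1a3, Glul and Slc38a1 in CPM on the vertical axes by cell class, with 1 point per library of at least 5 cells, coloured by age, and a black bar at the mean. At P1 Slc1a3 is highest in inner phalangeal cells (190 to 245 CPM) and Glul lowest in hair cells, in which Slc38a1 is highest.

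Slc38a1, a glutamine transporter known from neurons, was higher in HCs than in lateral SCs at P1. HCs had 129, 146, 124 and 203 CPM and lateral SCs 37.3, 24.2, 37.4 and 45.3 CPM. HCs were higher in 4 of 4 libraries by 1.80 (SE 0.235, adjusted p = 3.22e-08), and the classes did not overlap. P7 HCs had 113 and 107 CPM and lateral SCs 33.6 and 24.3.

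In KO cells Slc38a1 fell from 94.1 ± 10.1 CPM at E14 to 49.0 ± 6.25 at E16 (-0.82, SE 0.225, adjusted p = 0.0409), was 43.9 ± 10.9 at P1 and fell to 23.4 ± 2.28 at P7 (-0.67, SE 0.213, adjusted p = 0.0346). The ages of each called step did not overlap. The first call was lost without any 1 library of E14 or E16 and the second without either P7 library or P1 library 3 (adjusted p = 0.24, 0.131 and 0.0875). Of the 4 members, 1 passed between E14 and E16 in KO cells, where 8.31% of 8529 genes did, none between E16 and P1 (13.8%), and 3 between P1 and P7 (24.1%). IPhCs and lateral SCs did not differ in Slc38a1 past the threshold at E16 or P1. In the IPhC gate at P7 none of the 4 members passed against lateral SCs, where 1.47% of genes did.

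Slc38a3, the transporter through which astrocytes release glutamine, was listed low everywhere and not tested. Its highest class mean over libraries was 4.72 ± 4.7 CPM in P1 interdental cells, which rests on library 3 with 11.7 CPM, while the others had 1.66 to 3.39 CPM. P1 KO cells held 119 UMIs in 7020 cells. P7 glia held none, which again allows up to 4.9 CPM.

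Across 45 class and age means, the genes with a pattern most like that of Fabp7 among 9179 were Smpdl3a (r = 0.76), Gpx4 (r = 0.69) and Ppp1r14c (r = 0.68), and Slc1a3 had r = 0.18 with it. Those most like Slc1a3 included Tmem47 (r = 0.69) and 1810011O10Rik (r = 0.66), those most like Glul were Cd9 (r = 0.76), Cd47 (r = 0.74) and Cldnd1 (r = 0.73), and those most like Slc38a1 were Brd3 (r = 0.84), Rsbn1l (r = 0.83) and Asb7 (r = 0.83). The means of an age share libraries, and the values are a description with no test.

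The other genes of the pathway were read from fixed lists. Of 7 glutamate transporters 2 were tested at P1, and Slc1a3 was the one that passed in IPhCs, beside 8.06% of all genes, and in HCs, beside 37.5%. Of 5 fatty acid binding proteins 3 were tested. In lateral SCs from P1 to P7 each of the 3 passed, beside 10.1% of all genes. Fabp3, the form of muscle and heart, rose from 67.7 ± 28.2 to 681 ± 175 CPM (3.23, SE 0.375, adjusted p = 6.18e-05), and Fabp5, the epidermal form, fell from 79.6 ± 33.1 to 8.54 ± 5.27 CPM (-2.22, SE 0.38, adjusted p = 0.00139). At P1 Fabp3 was lower in IPhCs and in HeCs than in lateral SCs. Fabp5 was listed at 0 in the IPhC gate at P7 and at 60.7 ± 12.7 CPM in P1 IPhCs.

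Of 17 enzymes of glutamate and glutamine 13 were tested in P1 IPhCs, and 2 rose, 1 fell and 10 did not pass, with a median of -0.15 beside -0.04 for all genes, of which 8.06% passed. Gad1, which makes GABA from glutamate, was 36.3 ± 12.1 CPM in IPhCs and 2.09 ± 1.84 in lateral SCs (1.91, SE 0.284, adjusted p = 3.23e-06). Got2, the mitochondrial aspartate aminotransferase, was lower in IPhCs (108 ± 21.2 against 282 ± 52.2 CPM, -1.30, SE 0.212, adjusted p = 1.72e-05). In HCs 2 of the 13 rose and 3 fell, beside 37.5% of all genes that passed. Oat, ornithine aminotransferase, was 924 CPM in the 1 library of the IPhC gate at P7 and 48.2 ± 10.2 CPM in lateral SCs, and Abat, which degrades GABA, was 66.6 ± 23.1 CPM in P7 glia and 16.0 ± 0.712 in epithelial SCs (1.80, SE 0.362, adjusted p = 0.00217).

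Of 8 glutamine transporters 4 were tested. At E16 1 of them passed in IPhCs, beside 3.41% of all genes, and 1 in HeCs (5.41%), and at P1 1 passed in IPhCs (8.06%) and 2 in HeCs (18.6%). Slc7a5, a carrier of large amino acids, was the lower one in each. From P1 to P7 2 passed in lateral SCs (10.1% of all genes), where Slc7a5 fell from 92.6 ± 43.3 CPM at P1 to 0.896 ± 1.27 at P7 (-3.12, SE 0.401, adjusted p = 1.41e-04) and its partner Slc3a2 from 189 ± 52.6 to 79.0 ± 0.711 (-1.12, SE 0.298, adjusted p = 0.0256). In P7 glia both were higher than in epithelial SCs (15.6% of all genes). Slc7a5 was 53.2 ± 28.9 CPM in glia and 4.02 ± 3.7 in epithelial SCs (2.24, SE 0.503, adjusted p = 0.00524), and Slc3a2 was 371 ± 51.3 CPM in P7 glia and 140 ± 22.2 in epithelial SCs (1.52, SE 0.324, adjusted p = 0.00351). Slc38a2 was higher in P1 HeCs than in lateral SCs (193 ± 63.3 against 90.8 ± 41.0 CPM, 1.06, SE 0.195, adjusted p = 6.16e-05). Of 4 genes of vesicular glutamate release only Otof was tested at P1, and it took part in gating HCs, where it was 502 ± 79.0 CPM.

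Of 12 genes shared by glia and SCs, 6 were tested at P1. Gjb6, a gap junction gene of cochlear SCs, was 715 ± 275 CPM in P1 IPhCs and 11.4 ± 7.33 in lateral SCs (5.08, SE 0.366, adjusted p = 6.42e-14), while Gjb2 and Vim were also higher and S100b, a gate gene of pillar cells, was lower. The list had a median of 0.51 beside -0.04 for all genes, of which 8.06% passed. At P7, 10 were tested in glia against epithelial SCs, and 4 rose and 2 fell, with a median of 1.43 beside 0.06 for all genes, of which 15.6% passed. Vim, an intermediate filament gene, was 1440 ± 97.8 CPM in glia and 166 ± 47.1 CPM in epithelial SCs (3.46, SE 0.522, adjusted p = 1.68e-04), and Gjb2 was 33.0 ± 4.87 and 1520 ± 341 CPM (-5.13, SE 0.292, adjusted p = 2.31e-09).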

How the data were processed

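Single cell values were deposited by the authors as the natural log of 1 plus 10000 times the share of a gene in the UMIs of the cell. Per the labels' processing notes they used Cell Ranger 2.1.1 and Seurat 2.0 with mm10. Whole UMI counts were recovered for 100% of nonzero values, within 0.02 UMI. No cell was removed and no doublet caller was run, and the 64, 210, 180 and 39 cells of E14, E16, P1 and P7 that passed over 1 gate stayed unplaced.

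A cell was placed in the class with the highest mean z-score of its markers, if that was at least 1.0, led the next by 0.25 and had 3 detected markers. KO cells had 4 KO markers and no other score above 0.5, and were split at 0.25 either side of 0 on the medial markers. Because placing rests on rebuilt classes, cells may differ from the types that the study names.

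CPM was averaged over at least 5 cells of a class and library and compared in R 4.3.3 by limma 3.58.1, on the log2(CPM + 10) scale with a mean trend. A gene was tested where its mean in the fit reached 10 CPM. Classes of 1 age shared a fit with library as a block, and ages were compared in 1 fit per class without a block. P-values were adjusted (Benjamini-Hochberg) over all genes tested, at a threshold of 0.05. Only the fit of P1 IPhCs against lateral SCs was tried on simulated data, and no fit between ages or within P7 was. Libraries of 1 age pool different animals, and age cannot be told apart from the collection of its libraries. Clusters came from scanpy 1.11.5 and leidenalg 0.10.2 (resolution 2.0). The members, lists and marker genes were chosen with earlier results of these data known. Named genes were the members in every comparison and, from each list, those that passed, in the comparison where they differed most, at most 4 a list, and a few genes that this rule names are not reported here. The numbers of libraries of different ages did not pair them.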

Additional observations from a re-analysis of the deposited data

Results flagged for a closer look

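Library 1 of P1 stood apart from the other 3 in Fabp7. The gap between its value and the next, divided by the range of the 4 libraries, was 0.906 in lateral SCs (42.0 CPM against at most 9.08), 0.942 in Calb1-high KO cells (15.9 against at most 1.55), 0.844 in Calb1-low KO cells (575 against at most 95.4) and 0.872 in all KO cells (94.6 against at most 14.7). These are 4 of 28 sets of P1 libraries tested. For values with a normal spread chance gives about 1 in 20, but the ratio was taken on CPM, not on the log2 scale, and CPM need not be so spread. The sets also share libraries and all KO cells include both ranges, so the 4 are not separate draws. In IPhCs and HeCs of P1 the same ratio did not pass, with 0.396 and 0.626. The median of UMIs per cell was 5648, 5227, 5643 and 3832 in libraries 1 to 4, and its part in the differences of Fabp7 was not tested.

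The change from P1 to P7 differed between lateral SCs and KO cells for Glul (-0.94) and Fabp7 (2.11), each by limma on within-library differences. That of Fabp7 was -0.01 without the P7 cells of the Otol1-led cluster.

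Cells that no gate holds took no part in the comparisons. At P1 the 3624 such cells had a mean of 164 CPM of Fabp7 over cells, with 594, 124, 116 and 28.9 CPM in libraries 1 to 4, above the 0 to 13.8 CPM of HCs. Of the 407 P1 cells with at least 1000 CPM, 145 were in no gate.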

How the results depend on the processing

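The calls of Fabp7 in IPhCs and HeCs at E16 and P1 and in lateral SCs from P1 to P7, and those of Slc1a3, Glul and Slc38a1 in P1 HCs, kept their direction and side of the threshold in each alternative with limma. The exact permutation and sign-flip tests cannot reach 0.05 except between P1 and E16, where the smallest two-sided p is 0.0286. Over all members and alternatives 549 values were the same in direction and call, 61 lost and 11 gained a call, and 42 changed sign, none of them a call of the reported fit. Without the exact tests 509 were the same, 43 lost and 9 gained a call. The cause was not tested.

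Genes called in each comparison moved over 1.5 times as follows (counts as reported in brackets). With a pseudocount of 1 CPM there were 57 for P1 Calb1-low against Calb1-high KO (129), 51 for IPhCs P1 against E16 (111), 1698 for IPhCs P7 against P1 (626) and 19 for HeCs P1 against E16 (53). Without a filter there were 5171 for P1 HCs (3360), 644 for P7 IPhCs (130), 9 for IPhCs P1 against E16 and 22 for HeCs P1 against E16. With the mean of the deposited log values there were 510 for E16 IPhCs (311), 354 for P7 IPhCs, 1988 for KO E16 against E14 (709), 2526 for KO P1 against E16 (1173) and 196 for IPhCs P1 against E16. With a stricter gate there were 122 for E16 IPhCs, 328 for P1 KO, 554 for P7 IPhCs and 1172 for IPhCs P7 against P1. With clusters in place of gates there were 930 for E16 IPhCs, 1026 for E16 HeCs (493), 1091 for P1 IPhCs (723), 643 for P1 KO, 3737 for P7 glia (1372), 50 for IPhCs P1 against E16 and 122 for HeCs P1 against E16. Without cells over 3000 genes there were 471 for P1 IPhCs, 1049 for P1 HeCs (1669), 64 for P1 KO, 845 for P7 IPhCs, 2261 for P7 glia and 29 for HeCs P1 against E16. Without the Otol1-led cells there were 1035 for P7 IPhCs and 1586 for IPhCs P7 against P1.

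With no replicate block the class comparisons gave 146 for E16 IPhCs, 274 for E16 HeCs, 386 for P1 IPhCs, 944 for P1 HeCs and 52 for P1 KO. Library numbers did not pair libraries of different ages (correlations of deviations from -0.22 to 0.08). With a replicate block there were 2990 for KO E16 against E14, 699 for KO P1 against E16, 184 for IPhCs P1 against E16, where Fabp7 passed (1.55, adjusted p = 0.00161), and 115 for HeCs P1 against E16, and Glul passed for KO E16 against E14 (-0.67, adjusted p = 5.45e-04). P7 and P1 share 1 number, and a blocked comparison resting on that 1 pair was not run.

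Leaving out each library in turn gave 131 to 332 for E16 IPhCs, 209 to 576 for E16 HeCs, 33 to 128 for P1 KO, 90 to 872 for KO E16 against E14, 498 to 1639 for KO P1 against E16, 960 to 2587 for KO P7 against P1, 44 to 432 for IPhCs P1 against E16, 322 to 475 for IPhCs P7 against P1, 12 to 76 for HeCs P1 against E16 and 266 to 1176 for lateral SCs P7 against P1. It was not run for classes within P7, which leaves no residual degrees of freedom. Clusters gave no P7 IPhCs.

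Signs changed in these log2 values. With CPM of summed UMIs, Slc38a1 was 0.0577 in E16 IPhCs, Glul 0.0232 in P1 IPhCs and Fabp7 -0.22 in IPhCs P7 against P1. With the deposited log values, Slc38a1 was 0.0828 in E16 IPhCs, 0.0422 in KO P1 against E16 and 0.013 in HeCs P1 against E16, and Fabp7 -0.86 in IPhCs P7 against P1. With a stricter gate, Slc1a3 was -0.0752 in P1 KO and -0.22 in P7 IPhCs, Slc38a1 -0.0224 in P7 IPhCs and Fabp7 -0.28 in HeCs P1 against E16. With clusters, Slc38a1 was 0.0218 in E16 IPhCs, 0.0083 in P1 IPhCs and 0.25 in HeCs P1 against E16, Glul 0.0193 in P1 IPhCs and -0.20 in IPhCs P1 against E16, Slc1a3 0.0073 in P1 HeCs, and Fabp7 0.18 in P1 HCs and -0.32 in HeCs P1 against E16. With no replicate block, Slc38a1 was -0.13 in P7 IPhCs. Without the Otol1-led cells, Slc1a3 was -1.81 and Fabp7 -3.38 in P7 IPhCs, and in IPhCs P7 against P1 Fabp7 was -7.16 and Slc38a1 0.42. These values are given with no test, since all Fabp7 and Slc1a3 of that gate lay in the cells left out. Leaving out libraries, Slc38a1 ranged from -0.53 to 0.50 in E16 IPhCs, -0.80 to 0.0719 in E16 HeCs, -0.36 to 0.0716 in P1 IPhCs, -0.29 to 0.21 in P1 HeCs, -0.43 to 0.0878 in IPhCs P7 against P1 and -0.51 to 0.0361 in HeCs P1 against E16. Slc1a3 ranged from -0.24 to 0.56 in E16 HeCs and -0.86 to 0.0463 in P1 HeCs, Glul from -0.12 to 0.0762 in P1 IPhCs, -0.0293 to 0.28 in IPhCs P1 against E16 and -0.0012 to 2.07 in HeCs P1 against E16, and Fabp7 from -0.34 to 0.68 in IPhCs P7 against P1 and -0.26 to 0.68 in HeCs P1 against E16.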

Other observations

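Glial markers and Fabp7 met in a few cells before P7. At E16, 10 of the 105 cells with at least 1000 CPM of Fabp7 lay in a cluster of cycling cells led by Ube2c, Pclaf and Birc5, and all 10 came from library 2. They had means of 1140 CPM of Ednrb and 315 CPM of Sox10, and no Epcam, whereas the 60 such cells of the cluster led by Matn4 had 1120 CPM of Epcam. Library 2 also had the highest Fabp7 of E16 in medial prosensory cells (210 CPM), inner pillar cells (246 CPM) and HCs (81.7 CPM). In the E16 gate of inner pillar cells, 3 of the 100 cells lay in the same cycling cluster and had a mean of 2310 CPM, and the 61 cells of the cluster led by Npy had 14.9 CPM.

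At P7 the highest Slc1a3 and Glul of any cluster, 334 and 827 CPM, were found in 19 cells led by Mt3, Slc6a15 and Nefh that scored as myelinating glia. Only the library with 16 of them gives a level, so no spread is known.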
